A study of Mus musculus with 12 samples.

Results

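E19 is a small molecule, known here only by its code, that was added to activated mouse astrocytes in a test of hit compounds. Its array was set against the array of activated cells that received no compound. The comparison covers the genes detected on either of the 2 arrays, which were 7341 of the 16593 genes with a named probe. Of these, 6916 were detected on both arrays, 160 on the E19 array only and 265 on the activated control only. A gene counted as detected where its detection p-value, which compares the probe with negative control beads, was under 0.01.

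All cells were astrocytes derived from neural stem cells of 1 line labelled Rosa25/OG2, matured for 14 days. The E19 cells received 1 µg/ml of lipopolysaccharide (LPS) and 10 ng/ml of interferon-gamma, followed by E19 for 4 h. The other 9 compounds, coded E4, E5, E14, E18, E20, E21, E23, E29 and E33, were given in the same way. The activated control received LPS and interferon-gamma alone, and the non-activated control received neither stimulus nor compound. The labels give neither dose nor structure for any of them. Each of the 12 groups was 1 array, so a difference between arrays has no measured error and no test, and genes with a 2-fold difference were called higher or lower.

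LPS is a bacterial cell wall component that signals through Toll-like receptor 4 to the transcription factor NF-kB and to MAP kinases. The outcome is a first wave of chemokines, cytokines and early transcription factors, together with inhibitors such as Nfkbia and Tnfaip3 that limit the same signal. Interferon-gamma signals through JAK kinases to guanylate-binding proteins, antigen presentation genes and the chemokines Cxcl9, Cxcl10 and Cxcl11. Astrocytes with both stimuli are a common model of reactive, inflammatory astrocytes.

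The arrays were alike in overall signal. Median bead intensity was 123 on the E19 array and 125 on the activated control, and it ranged from 117 to 127 over all 12. The E19 array detected 10182 probes, against 9106 (E29) to 10719 (non-activated control) on the others. Of 14 astrocyte markers with a probe 13 were measured, among them Gfap, Slc1a3, Aqp4, Gja1 and Aldoc, and S100b was not detected on any array. The median difference of the 13 was -0.03 log2 units, with 0 called. The E29 array stood apart, with 1681 genes differing 2-fold from E19, so ranges over the other compounds usually end at E29. Levels below are log2 intensities after background correction and quantile normalisation, unless they are called bead intensities, and they are compared between arrays and not between genes. In RNA from a whole culture, fewer cells of a type and less RNA per cell cannot be told apart.

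With E19, 26 genes were lower than in the activated control (0.354% of those measured) and 4 were higher (0.0545%), which makes 30 called genes (0.409%). Without background correction, 6 genes were lower and 0 higher. The lower genes were led by chemokines and NF-kB feedback genes: Cxcl1 was 4.91-fold lower, Tnfaip3 4.00-fold and Ccl5 3.99-fold. Gpnmb, at least 3.83-fold higher, and Ccl4, at least 2.35-fold higher, led the other direction. The median of all measured genes was -0.01, and the standard deviation over genes of the difference was 0.26 log2 units. Set against the other 10 activated arrays by their median, 5 of 7343 genes were lower (0.0681%) and 3 were higher (0.0409%). The 5 were Cxcl1, Tnfaip3, Erdr1, Ccl5 and Egr2, and the 3 were Gpnmb, Ccl4 and Ahnak. Both comparisons use the same E19 array, and the activated control is 1 of the 10, so neither repeats the other.

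**Figure D1:**
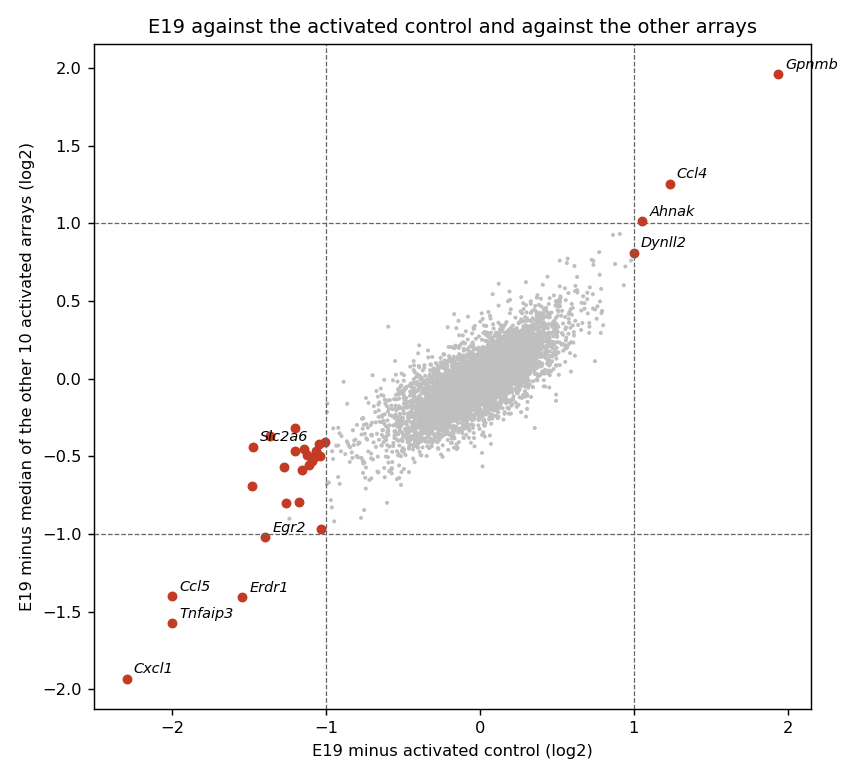
Each point is a gene measured in both comparisons, with the difference of E19 from the activated control on the horizontal axis and from the other 10 activated arrays (their median) on the vertical axis, both in log2 units. Red points are called genes and dashed lines mark 2-fold. Cxcl1, Tnfaip3, Ccl5, Erdr1 and Egr2 lie past both lines on the lower side, and most other lower genes, such as Slc2a6, lie past the vertical line only.

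Among ligands, Cxcl1, a chemokine that attracts neutrophils, had a level of 6.45 with E19, against 8.74 in the activated control. The other 9 compounds gave 4.48 (E29) to 9.12 (E4) with a median of 8.12, and the non-activated control stood at 4.72. E19 was thus the second lowest of the 11 activated arrays, with E5 at 7.20 and E14 at 7.24 next above it. Against the median of the other 10 arrays Cxcl1 was 3.82-fold lower. Its difference from the non-activated control, set against that array's lowest detected value, was 1.07 log2 units with E19 and 3.37 in the activated control.

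Ccl5, which attracts T cells and monocytes, stood at 7.18 with E19 and 9.18 in the activated control. The other compounds ran from 7.48 (E29) through a median of 8.54 to 9.20 (E21), and the non-activated control was at 6.16. On these normalised levels E19 was below every other activated array. In bead intensity it was not, at 242 with E19 and 220 with E29. Ccl5 was 2.64-fold lower than the median of the other 10.

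Il6, the cytokine of the acute phase response, was not detected with E19, where its bead intensity was 123, against 211 in the activated control. E19 was not alone in this, since Il6 was detected on 5 arrays only. The arrays of E5, E14, E20, E29, E33 and the non-activated control lacked it too. With E19, Il6 was at least 2.30-fold lower than in the activated control on the log2 intensities. Its normalised level was 4.89 with E19, 6.76 in the activated control, and 4.66 (E29) to 6.99 (E4) with the other compounds. The difference from the median of the other 10 arrays was -0.32 as a bound, which did not pass 2-fold.

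The list of inflammatory cytokines and chemokines had 14 measured members, of which 3 were lower (Cxcl1, Ccl5 and Il6) and 1 was higher (Ccl4), against 0.354% lower and 0.0545% higher of all measured genes. Their median difference was -0.44 against the activated control and -0.35, over those also measured there, against the other 10 arrays. Ccl2, which attracts monocytes, was not called, at 11.32 with E19 and 12.07 in the activated control. It was the second lowest of the 11 arrays, since the other compounds gave 5.27 (E29) to 12.63 (E21) with a median of 12.26. Nos2 and Tnf, which encode an enzyme that makes nitric oxide and a cytokine, were not detected on either array and have no value.

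The NF-kB pathway genes lay on the same side. All 11 that were measured lay below the activated control, against 51.3% of all measured genes, with a median of -0.54, and Tnfaip3 alone was called. Tnfaip3, also known as A20, encodes a ubiquitin-editing enzyme that shuts down NF-kB signalling. It stood at 6.28 with E19 and 8.28 in the activated control. The other compounds gave 4.40 (E29) to 8.90 (E4), with a median of 7.82, and the non-activated control 5.42. E5 (6.52) and E14 (6.79) were the next lowest, as for Cxcl1.

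Smaller differences were seen for other genes of the pathway list. Tnip1, which encodes a partner of A20, differed by -0.80, Nfkbie by -0.75, Nfkbiz by -0.68 and Nfkbia by -0.54. The adhesion molecule Vcam1, an NF-kB target, differed by -0.74 and the subunit gene Relb by -0.44, whereas Rela, which encodes the main activating subunit, differed by -0.05. The activated control was the highest of the 11 activated arrays for 3 of the 11 measured pathway genes, against 6.59% of all measured genes. Against the median of the other 10 arrays the same 11 genes had a median of -0.21, and 9 of the 11 lay below it. Nfkbia had -0.65 and Tnip1 -0.50 there, whereas Vcam1 had -0.12 and the receptor gene Cd40 had 0.42. Zc3h12a, which encodes a ribonuclease that degrades cytokine transcripts, was 2.26-fold lower, at 6.30 with E19 and 7.48 in the activated control. It was the second lowest of the 11 arrays.

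**Figure D2:**
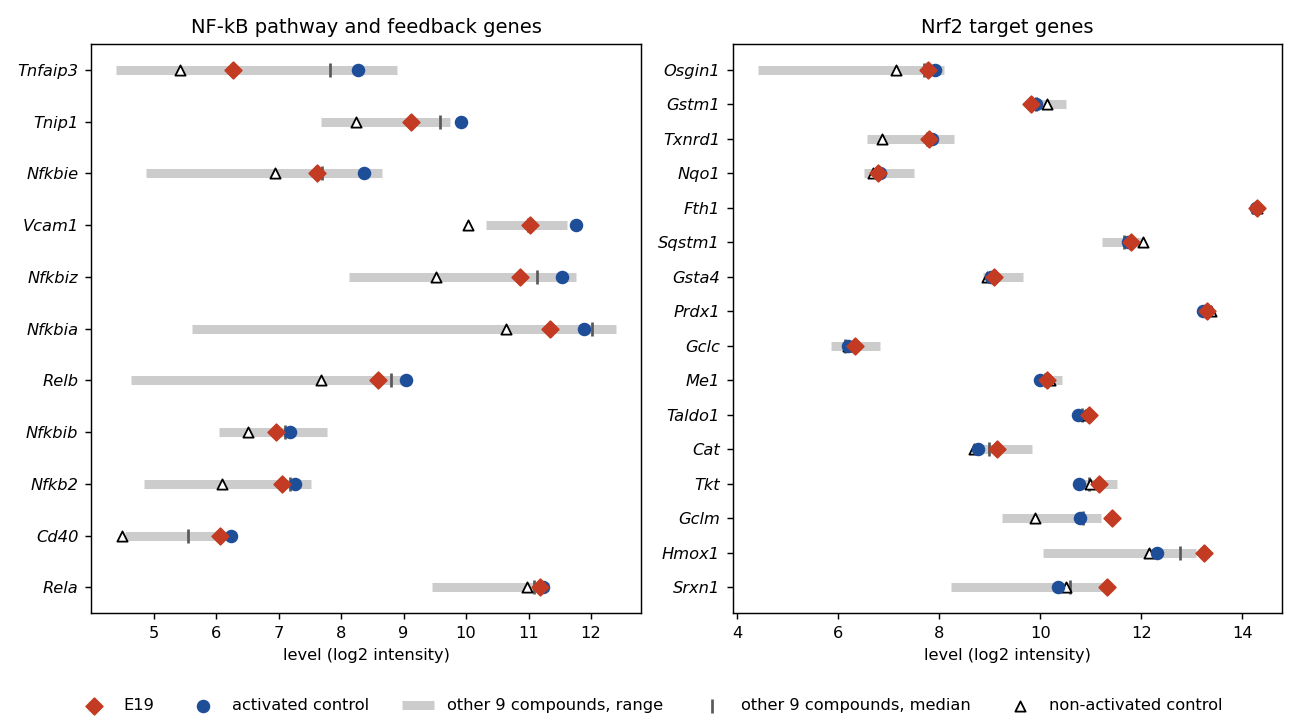
Levels in log2 intensity of the measured members of both lists, with E19 as red diamonds, the activated control as blue circles, the range of the other 9 compounds as grey bars with their median as a tick, and the non-activated control as open triangles. E19 lies left of the activated control for all 11 NF-kB pathway genes, and right of it for 12 of 16 Nrf2 targets, with Srxn1, Hmox1 and Gclm at the end of the scale that no other compound reached.

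The promoters of Cxcl1 and Il6 are shown as called members of the cytokine and chemokine list, beside Ccl5 and Ccl4, which are not shown, and that of Tnfaip3 as the called NF-kB pathway gene. Each is the 250 bases before the start of transcription, from RefSeq on GRCm38.p6, read 5′ to 3′ on the strand of the gene. Capitals mark matches on either strand to a form of the NF-kB site, which is GGGAATTTCC with any bases in place of AA, or to TGANTCA, the AP-1 site. Cxcl1 lies at chr5:90890995-90891244 on the plus strand, Il6 at chr5:30012864-30013113 on the plus strand and Tnfaip3 at chr10:19015411-19015660 on the minus strand. Tnfaip3 was chosen for display after its values were seen, and its other listed start held neither match.
Cxcl1: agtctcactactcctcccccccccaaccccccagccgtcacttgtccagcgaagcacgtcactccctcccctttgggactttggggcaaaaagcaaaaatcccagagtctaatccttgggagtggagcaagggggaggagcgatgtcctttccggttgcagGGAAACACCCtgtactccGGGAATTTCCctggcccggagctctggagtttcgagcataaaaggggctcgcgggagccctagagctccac
Il6: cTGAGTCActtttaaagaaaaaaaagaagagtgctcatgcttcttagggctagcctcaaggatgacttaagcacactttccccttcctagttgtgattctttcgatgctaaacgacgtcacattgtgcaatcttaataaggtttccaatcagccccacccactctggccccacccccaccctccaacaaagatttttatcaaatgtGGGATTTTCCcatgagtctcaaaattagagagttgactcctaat
Tnfaip3: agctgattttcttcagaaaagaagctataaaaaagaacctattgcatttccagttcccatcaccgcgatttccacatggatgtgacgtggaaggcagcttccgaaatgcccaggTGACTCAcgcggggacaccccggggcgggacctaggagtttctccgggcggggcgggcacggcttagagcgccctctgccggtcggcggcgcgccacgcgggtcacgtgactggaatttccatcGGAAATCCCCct
The Cxcl1 window held the NF-kB form at 71 to 62 bases before the start and, on the other strand, at 89 to 80. The Il6 window held it at 44 to 35 and TGANTCA at 249 to 243. The Tnfaip3 window held the NF-kB form on the other strand at 12 to 3 and TGANTCA at 136 to 130. Of all 32851 promoters of this length, 1.41% held the NF-kB form and 6.75% held TGANTCA. The CREB site TGACGTCA (1.55% of promoters) and a form of the interferon-stimulated response element (2.98%) were searched too and had no match in these windows. A match is a description of the letters and not a bound site.

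Immediate early genes are switched on within minutes of a stimulus, and many encode transcription factors. Of 15 measured members, 14 lay below the activated control, against 51.3% of all measured genes, with a median of -0.45. Egr2, a zinc finger factor, was the member called, at 2.62-fold lower. Its level was 7.49 with E19 and 8.88 in the activated control, 6.82 (E29) to 9.61 (E4) with the other compounds and 6.02 without activation. E33, at 7.34, was also lower than E19. Ier3, a survival gene induced by NF-kB, was not called, at 11.75 with E19 against 12.70 in the activated control. Its difference against the other 10 arrays was as large, at -0.92. Zfp36, whose product destabilises cytokine transcripts, differed by -0.71 against the activated control and -0.64 against the other 10. Atf3 (-0.59), Junb (-0.55), Jun (-0.46) and Fos (-0.45) had smaller values. The same 15 genes, where measured, had a median of -0.30 against the other 10 arrays.

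For some interferon genes the activated control array itself was at the top of the range. Of 17 measured type I interferon-stimulated genes, 15 lay below the activated control, against 51.3% of all measured genes. Their median was -0.49 and 1, Oasl2, was lower. Against the other 10 arrays the same genes had a median of -0.06. The activated control was the highest of the 11 activated arrays for 6 of the 17, against 6.59% of all measured genes. Of 22 measured interferon-gamma and antigen presentation genes, 19 lay below the activated control and Gbp5 was lower. Their medians were -0.30 against the activated control and -0.10 against the other 10. The activated control was the highest of the 11 arrays for 6 of these 22.

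Gbp5, a guanylate-binding protein that takes part in inflammasome activation, was 2.42-fold lower, at 7.70 with E19 and 8.97 in the activated control. The other compounds gave 4.52 (E29) to 8.86 (E33) with a median of 8.13, so the activated control was above all of them and E19 lay within their range. Oasl2, a 2'-5'-oligoadenylate synthetase-like antiviral gene, was 2.18-fold lower, at 8.75 with E19 and 9.87 in the activated control. The other compounds gave 7.71 (E29) to 9.92 (E33).

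Nlrc5, an activator of MHC class I genes, was at least 2.79-fold lower and was not detected with E19. Nlrc5 was detected on 7 arrays, and E19 was not the only array without it. Its bead intensity was 134 with E19 and 237 in the activated control. Uba7, which activates the ubiquitin-like protein Isg15, was 2.30-fold lower (7.04 with E19 and 8.24 in the activated control). Cxcl11 was 2.23-fold lower, at 5.56 with E19 and 6.72 in the activated control, where the other compounds apart from E29 gave at most 6.40. Cxcl9 (-0.86) and Cxcl10 (-0.53) were not called. Cxcl10 stood at 13.60 with E19 and 14.13 in the activated control.

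Several lower genes belong to signalling and transport rather than to these lists. Slc2a6, a hexose transporter induced in inflammatory macrophages, was 2.78-fold lower, at 7.02 with E19 and 8.49 in the activated control. The receptor genes P2ry6, for uridine diphosphate, and Tlr2, for bacterial lipopeptides, were 2.58-fold and 2.11-fold lower. Adamts4, a protease of extracellular matrix, was 2.40-fold lower, with a level of 6.76 under E19 and 8.02 in the activated control. Lcn2, an iron-siderophore-binding protein of reactive astrocytes, was 2.21-fold lower, at 11.16 with E19 and 12.30 in the activated control. The activated control was the highest of all 11 arrays for Lcn2, and E4 (10.50), E29 (10.63) and E18 were lower than E19. The transcription factor genes Klf3 and Srf were 2.16-fold and 2.06-fold lower, and Fst, the activin antagonist, was 2.09-fold lower.

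Mlkl, the effector of necroptosis (2.09-fold lower), the growth factor Pdgfb (2.06-fold), the cytokine Il19 (2.05-fold) and the guanylate-binding gene Gbp2b (2.01-fold) completed the named ones, and these 4 were picked after their values were seen. Of these 4, Il19 alone lay below the non-activated control, at 7.24 with E19 and 8.40 without activation. Erdr1 and Hnrnpdl are described with the higher genes, and 1 lower gene without a formal symbol was only counted.

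**Figure D3:**
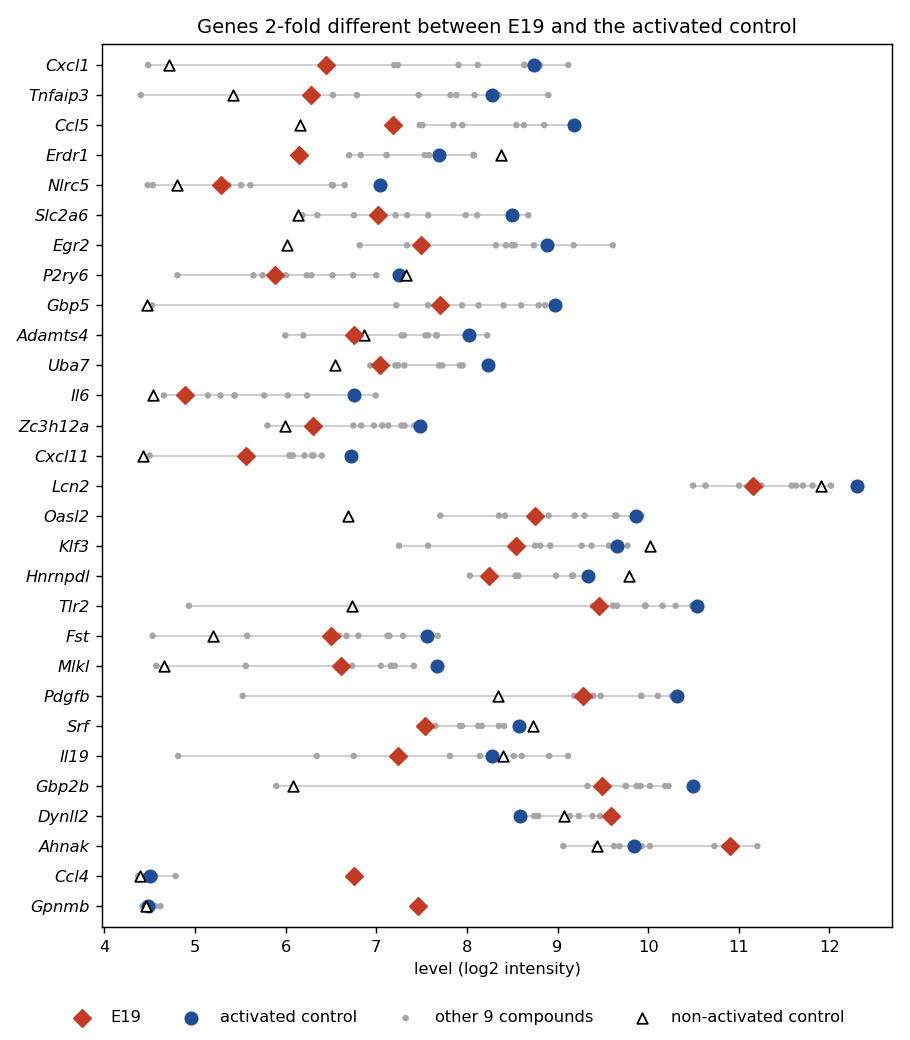
Levels in log2 intensity of 29 of the 30 called genes on every array, with E19 as red diamonds, the activated control as blue circles, the other 9 compounds as grey points and the non-activated control as open triangles. Points below detection include Il6 and Nlrc5 on the E19 array and on several others, and Ccl4 and Gpnmb on every array but E19. E19 is left of the activated control for the lower genes and right of it for the last 4, and blue circles form the right end of the row for many of the lower genes.

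All 26 lower genes also lay below the other 10 activated arrays' median, by a median of -0.54, against -1.19 for the activated control. The activated control was the highest of the 11 arrays for 13 of the 26, against 6.59% of all measured genes. The 26 were chosen for a low E19 value against a high activated control, which favours both results. E19 was below all 10 other arrays for 3, which were Ccl5, Erdr1 and the gene without a formal symbol, and within their range for 23. For Ccl5 this held on the normalised levels and not in bead intensity. E29 was the lowest array for 19. Just inside the 2-fold line were Gbp2b, Il19 (-1.03) and Srf (-1.04) on the lower side and Dynll2 on the higher side. Just outside, between 0.9 and 1 log2 units, were 17 lower genes, among them Usp18 (-0.99), Ifi47 (-0.95) and Ier3 (-0.95), and 4 higher ones, Srxn1 (0.98), Sema6d (0.95), Hmox1 (0.93) and Ccl3 (0.91).

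Activation-induced genes were defined as those for which the other 9 compound arrays, by their median, passed the non-activated control by 2-fold or more, so neither of the 2 arrays compared chose them. Of 194 measured with E19 or the activated control, 13 were lower with E19 and 0 were higher, against 0.354% and 0.0545% of all measured genes. In all, 145 of the 194 lay below the activated control, against 51.3% of all measured genes. Their median difference was -0.28 against the activated control. Against the other 10 arrays, 9 of which chose the genes, it was -0.11. Set against the non-activated control, the same genes had a median of 1.46 with E19 and 1.59 in the activated control, both above 0 by the choice of genes. For 36 of the 194 the activated control was the highest of the 11 arrays, against 6.59% of all measured genes. The other 13 lower genes, such as Klf3, Srf and P2ry6, were not in the set.

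On the higher side, Ahnak, a very large scaffold protein, was 2.08-fold higher, at 10.90 with E19 and 9.84 in the activated control. E21 (11.20), E33 (10.84) and E20 (10.73) were near E19, and the remaining activated arrays lay at 10.02 or below. Dynll2, a light chain of dynein, was also higher, at 9.59 with E19 and 8.59 in the activated control, with E20 (9.47) and E33 (9.39) near E19. Erdr1, named for a role in erythroid differentiation, was 2.92-fold lower, at 6.15 with E19 and 7.70 in the activated control. Its next lowest arrays were E21 (6.70) and E33 (6.83), and the non-activated control was at 8.38. Hnrnpdl, an RNA-binding protein, was 2.13-fold lower (8.25 with E19 and 9.34 in the activated control), with E29 at 8.03, below E19, and E21 at 8.27, E33 at 8.54, E20 at 8.54 and E4 at 8.57 next above it.

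Of the 30 called genes, 10 had more than 1 probe. A second probe was detected for 3 of the called genes, and each differed in the same direction by less. For Hnrnpdl it gave -0.11 against -1.09 for the brighter probe, and for Oasl2 -0.43 against -1.12 and for Ahnak 0.13 against 1.06. The second probe of Dynll2 was not detected with E19 or the activated control. The calls of Hnrnpdl, Oasl2, Ahnak and Dynll2 thus rest on 1 probe each, as does every call of a gene with a single probe. Whether the probes of a gene read different transcripts was not tested.

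Targets of Nrf2, the transcription factor of the oxidative stress response, lay above the activated control for 12 of 16 measured members. Of all measured genes, 51.3% lay below it. The median of the 16 was 0.10, with 0 called. Srxn1, which repairs oxidised peroxiredoxins, came nearest to a call with a difference of 0.98. It stood at 11.33 with E19 and 10.35 in the activated control, at 8.23 (E29) to 11.22 (E20) with the other compounds, and at 10.51 without activation. Hmox1, which degrades heme, differed by 0.93, at 13.24 with E19 and 12.31 in the activated control, with E20 at 13.08 next. Gclm, a subunit of the enzyme that starts glutathione synthesis, differed by 0.62, at 11.41 with E19 and 10.79 in the activated control, with E20 at 11.20. E19 was the highest of the 11 activated arrays for these 3 genes, while 3.16% of the genes detected on all 11 had E19 highest. Nqo1, another standard target, had -0.03, Txnrd1 -0.06 and Osgin1 -0.14. Against the other 10 arrays Srxn1 had 0.76, Hmox1 0.60, Gclm 0.60 and the list a median of 0.09. Over 10 other ways of computing the values, the difference from the activated control stayed within 0.93 to 0.98 for Srxn1, 0.92 to 0.97 for Hmox1 and 0.57 to 0.62 for Gclm.

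Cholesterol synthesis genes showed small differences of one sign, with 15 of 17 measured members above the activated control, 16 of 17 above the median of the other 10 arrays, and 0 called. Their medians were 0.12 and 0.18. Of all measured genes, 51.3% lay below the activated control, and the share above the median of the other 10 was not counted. Insig1, a sterol-regulated brake on the pathway, had the largest difference, 0.57, and was at 9.11 with E19 and 8.54 in the activated control. No other activated array reached E19, and E20 (8.90) and E18 (8.80) were next. Of its other detected probes, 1 gave 0.54 and 1 gave -0.13. Cyp51 (0.42) and Sqle (0.37), 2 enzymes of the sterol branch, followed. Among genes of the unfolded protein and integrated stress responses, 16 of 19 were above the activated control, with a median of 0.19 against it and 0.09 against the other 10, and 0 called. Ddit3, the stress factor also called CHOP, had the largest difference of them (0.49).

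By their brightest probe, 8 genes were detected on the E19 array and on no other of the 12. The same count was 3 (E23) to 46 (E4) on the other activated arrays and 140 on the non-activated control, so the number itself was not high. The farthest of the 8, Gpnmb, lay 1.90 log2 units above the lowest detected value of its array. On the other activated arrays the farthest such gene lay at most 1.07 above that array's value (E4), and on the non-activated control 1.79. These distances compare 1 gene per array. With their levels, the 8 were Gpnmb (7.46), Ccl4 (6.75), Ccl3 (6.43), Laptm5 (6.15), Lpl (5.95), Il1b (5.73), Pafah2 (5.68) and Strada (5.65).

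Gpnmb, a transmembrane glycoprotein of phagocytes and pigment cells, had a bead intensity of 272 with E19 and 107 in the activated control, and at most 116 on the other arrays. Ccl4, a chemokine that attracts monocytes and T cells, had 205 with E19 and 109 in the activated control, with 114 as the highest other value. Ccl3, its close relative, had 183 with E19 and 103 in the activated control, with 108 as the highest elsewhere. The E19 value stands clear of the other 11 arrays in each case, and those 11 are at background.

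Laptm5, a lysosomal protein of blood cells, had 168 with E19 and 106 in the activated control, with at most 115 elsewhere. Lpl, lipoprotein lipase, had 158 with E19 and 109 in the activated control, with 123 in the non-activated control. Il1b, the interleukin-1 beta gene, had 149 with E19 and 109 in the activated control, with at most 123 elsewhere. On the log2 intensities Il1b was at least 1.16-fold above the activated control, which is no call. Pafah2 (147 with E19 and 135 in the activated control) and Strada (146 with E19 and 135 in the activated control) were hardly above their values on other arrays. The other probe of Pafah2 was detected on 1 other array and not with E19.

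Gpnmb rests on 1 of its 4 probes, since the other 3 had 104 to 115 with E19 and were not detected. The second probe of Ccl4 had 131 with E19 and 111 in the activated control, and 107 to 117 on the other 11 arrays, with a detection p-value of 0.0263 on the E19 array. Il1a, Il1rn, Cyba and Slc15a3, picked after their values were seen, were also highest with E19 while not detected there, at bead intensities of 131, 131, 139 and 130 with E19 against 110, 110, 115 and 99.9 in the activated control. The share of all undetected genes that were highest with E19 was not counted, so nothing is concluded from these 4.

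**Figure D4:**
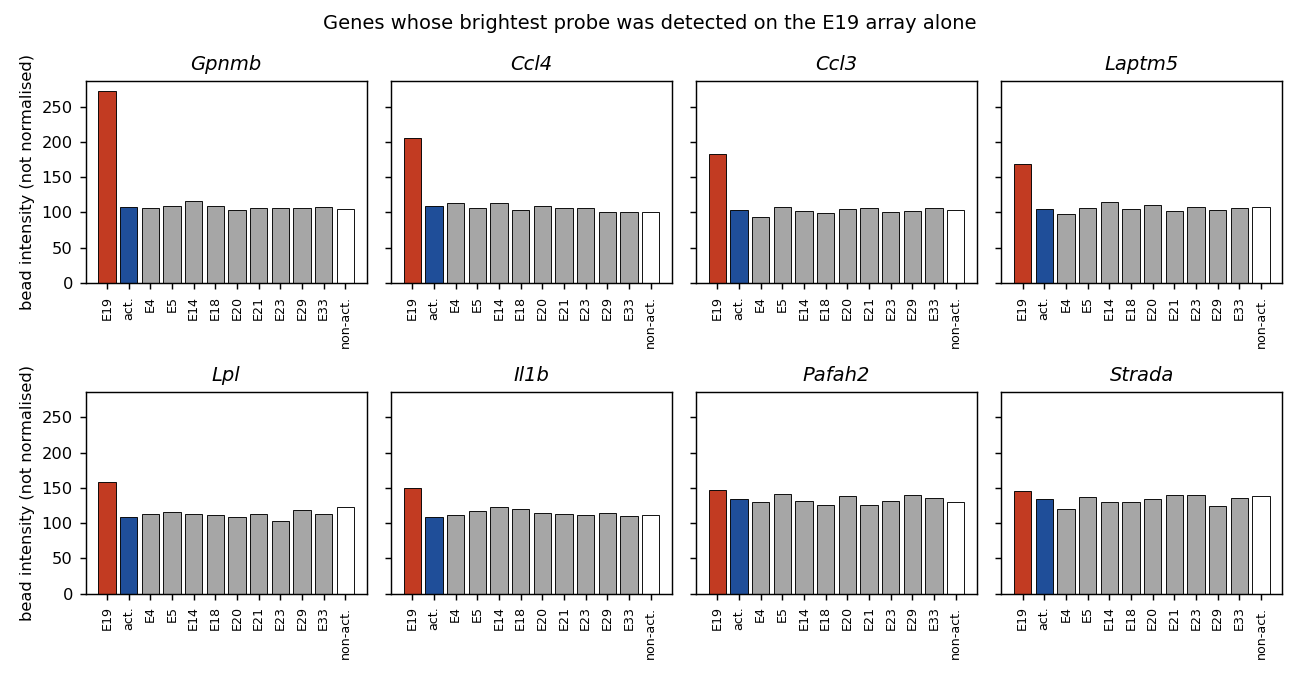
Bead intensity, not normalised and on a linear axis from 0, of the brightest probe of the 8 genes for which that probe was detected on the E19 array alone, with 1 bar per array (E19 red, activated control blue, other compounds grey, non-activated control white). E19 stands at 272 for Gpnmb, 205 for Ccl4 and 183 for Ccl3, where the other 11 bars stay near 100, and the difference shrinks to a few units for Pafah2 and Strada.

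Most of these genes are known from microglia and macrophages, so the markers of those cells were read beside them. Of 13 microglia and macrophage markers with a probe, 0 were detected on any array, Aif1, Itgam, Cx3cr1, Tmem119, P2ry12, Ptprc, C1qa, Tyrobp and Trem2 among them. Their summed bead intensity was 1459 with E19 and 1441 in the activated control, and it ran from 1389 to 1476 with the other compounds and was 1465 in the non-activated control. E19 was the highest of 12 arrays for 1 of the 13, Fcer1g, at 124 with E19 and 109 in the activated control, and the gene was not detected. Of 10 endothelial and pericyte markers, 0 were detected with E19 or in the activated control, and Flt1, a receptor of endothelial cells, was detected in the non-activated control only.

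Over all genes, E19 lay outside the range of the other activated arrays no more often than most of them did. Among 5922 genes detected on all 11 activated arrays, E19 was above all others for 3.16% and below all others for 5.74%. The same shares were 3.17% to 6.53% above and 3.82% to 12.7% below for the other arrays apart from E29. Erdr1, Mtmr1 and Dhx35 lay farthest below the range, by 0.55, 0.50 and 0.41 log2 units. Ccl5 was 0.29 below it on the normalised levels, though not in bead intensity. Mtmr1 encodes a phosphoinositide phosphatase and Dhx35 an RNA helicase. Cycs, the cytochrome c gene, was 0.32 below the range. Farthest above it were Rnf182 (0.32), a ubiquitin ligase, Ranbp9 (0.30), a scaffold protein, Ing1 (0.30), a chromatin reader, and Prkaa2 (0.27), a catalytic subunit of AMP-activated kinase. Gclm and Insig1, both at 0.21, were among the 10 farthest above.

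The array most like E19 was E20, with a standard deviation over genes of 0.21 log2 units between them and 9 genes 2-fold different. E14 (0.24, 12 genes) and E5 (0.24, 13 genes) came next, and the activated control, at 0.26 with 30 genes, was farther away. The comparisons with E20, E14 and E5 do not use the activated control. Compared with E20, E19 was lower for Cxcl1 (3.19-fold), Ccl5 (3.18-fold), Tnfaip3 (2.28-fold) and Egr2 (2.05-fold), and for Ccno and Wnt7a. It was higher for Gpnmb (at least 3.96-fold), Ccl4 (at least 2.43-fold) and Cpd (2.43-fold). Compared with E14 and E5, which had the next lowest Cxcl1 and Tnfaip3, none of the 12 and 13 genes was Cxcl1, Ccl5 or Tnfaip3. Those lists held Erdr1 (2.70-fold lower against E14 and 2.61-fold against E5), Il19 (3.67-fold and 2.43-fold lower), Ahnak (2.42-fold and 2.32-fold higher), Gpnmb and Ccl4.

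The remaining lists held few or no called genes. Of 10 measured pan-reactive astrocyte genes, which rise in many kinds of injury, Lcn2 was lower. In this list 5 of 10 lay below the activated control, against 51.3% of all measured genes. Gfap, the astrocyte filament gene, was at 12.77 with E19 and 12.37 in the activated control, where E33 reached 12.87. The A1 list, first described in inflammation, had 7 of 7 below with a median of -0.23, and the A2 list, first described after ischaemia, 6 of 8 below with a median of -0.28, with 0 called in either. Against the other 10 arrays, over those also measured there, the medians were -0.081 for A1 and -0.15 for A2. Targets of p53 had a median of -0.39 against the activated control over 16 members and 0.04 against the other 10 arrays. For 6 of those 16 the activated control was the highest array. Genes that respond to cAMP had a median of -0.47 over 8 members, with Crem (-0.76) the farthest. Neural stem cell markers (-0.01), heat shock genes (0.04), hypoxia and glycolysis genes (0.07) and reference genes (0.00) were near 0.

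**Figure D5:**
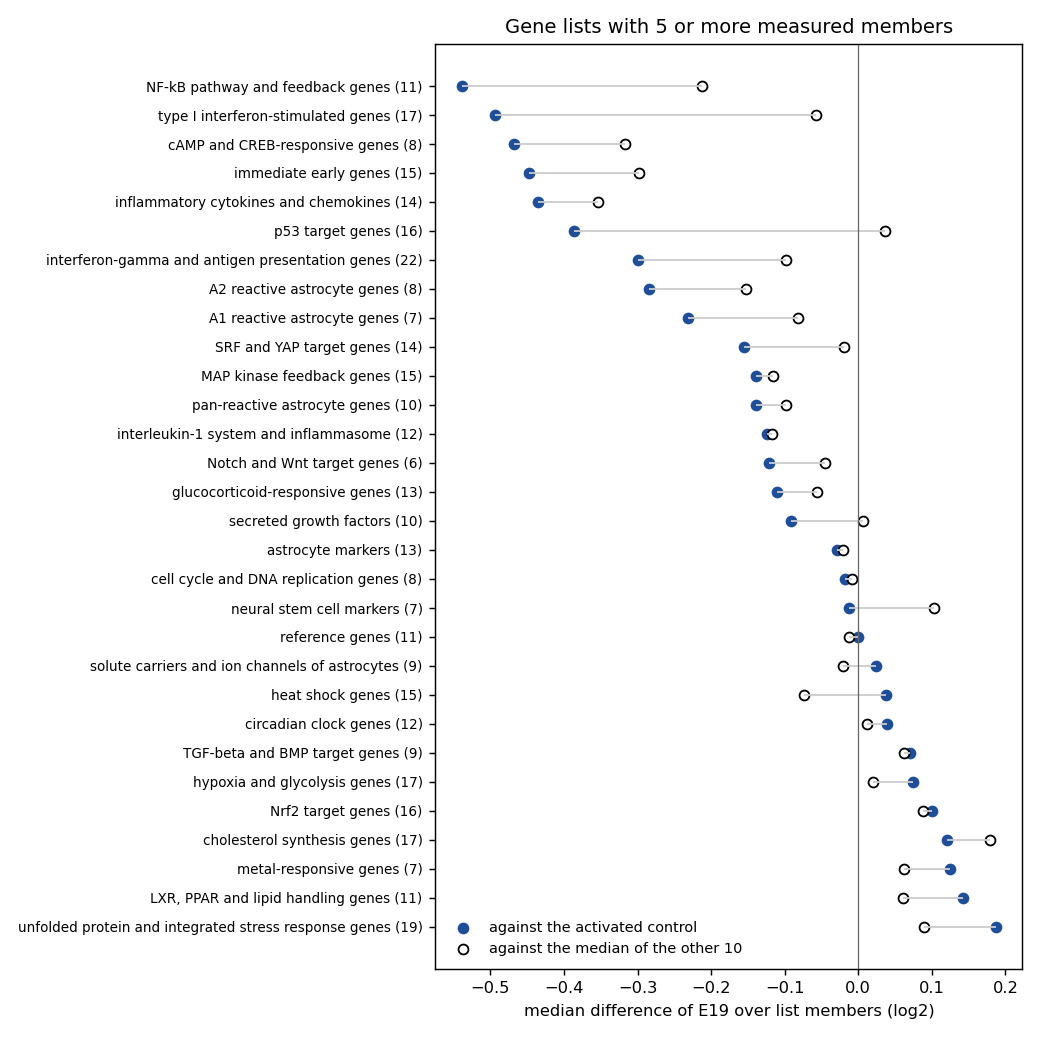
Median difference of E19 in log2 units over the measured members of each gene list, with the number of members in brackets, against the activated control (blue) and against the median of the other 10 (open, over the same genes). NF-kB, cytokine and immediate early lists stay below 0 on both, type I interferon and p53 lists move to near 0 against the other arrays, and cholesterol synthesis genes are slightly above 0 on both.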

How the data were processed

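Total RNA of 12 cultures was labelled with biotin from 400 ng of input and hybridised to 1-colour Illumina bead arrays, 1 array per group. The authors deposited mean bead intensity per probe, not normalised per the file headers, beside a deposited detection p-value for each value. The submitters' processing notes name GenomeStudio 2010.3. Sources used here do not say if background was subtracted. A deposited table of the authors' processed intensity (linear, 45.1% to 45.2% of probes at a floor of 10, array medians 14.9 to 15.0) served as an alternative. After centring each probe, each of its 12 columns matched the same sample best. How it was normalised is not stated in those sources.

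The neqc function (limma 3.58.1, R 4.3.3, offset 16) corrected the background, quantile-normalised the arrays and gave log2 values. The platform annotation gave 1 gene symbol for 23978 of 25697 probes and did not list 1719. The brightest probe stood for a gene, and 4777 of 16593 genes had more than 1. Values of undetected genes were set no lower than the dimmest detected gene of that array, 5.56 log2 units with E19 and 5.52 in the activated control, so a fold there is a bound. The method was tested on simulated data with fold changes on bright probes only, so the test did not cover genes near background. Array number and signal over background limit the precision. Lists and counts were computed in Python 3.11.15.

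The comparison, the 38 gene lists and the rules were chosen with earlier results of these data known. Named were called genes (at most the 20 largest per direction against the activated control and 15 against the other arrays), the 10 farthest outside the range of the other arrays per direction, genes detected on the E19 array alone (at most 10), up to 4 members per list with the largest differences, and 9 genes looked up throughout. Symbols starting with LOC, Gm or ENSMUS or ending in Rik were only counted. Further list members are given as examples, picked after their values were seen.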

Additional observations from a re-analysis of the deposited data

Results flagged for a closer look

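Of 578 measured probes without a gene in the platform annotation, 3 differed 2-fold between E19 and the activated control. One of them, ILMN_1259424, was higher with E19 by 1.34 log2 units, at 7.83 with E19 and 6.49 in the activated control. It is listed here because it lies outside the named genes and above both controls, the non-activated one being at 6.54. The other 9 compounds gave 6.65 to 7.99 for this probe, with a median of 7.06, so E19 was not the highest array. The other 2 probes were lower with E19, by -1.18 and -1.07 log2 units.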

How the results depend on the processing

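No paired analysis was possible because each group is 1 array. The 4 higher genes against the activated control became 0 without background correction, 2 with common median scaling, with an offset of 50, with detection required on both sides or with the mean of detected probes, 7 with the authors' processed table or a detection p-value under 0.05, 9 without the bound (with or without the detection filter) and 62 at 1.5-fold. The 26 lower genes became 6 without background correction, 17 with an offset of 50 and 163 at 1.5-fold. Against the other 10 arrays, the 3 higher genes became 0 without background correction, 1 with an offset of 50 or detection on both sides, 5 at a detection p-value under 0.05, 7 without the bound (with or without the filter) and 27 at 1.5-fold, and the 5 lower genes became 1 without background correction and 37 at 1.5-fold. Genes detected with E19 alone numbered 29 at a detection p-value under 0.05 and 3 under 0.001. Cxcl1, Tnfaip3, Ccl5 and Egr2 stayed past 2-fold in all 12 alternatives, Erdr1 in 11 of 12 and Gpnmb in 10 of 11, and none of the 30 called genes changed direction. The log2 medians of the cytokine list moved to -0.71 with detection on both sides, -0.11 without filter or bound and -0.70 without the bound. Without filter or bound, medians were -0.22 for NF-kB, -0.15 for type I interferon, -0.13 for immediate early and -0.092 for cAMP genes, the last being -0.11 at a detection p-value under 0.05. Against the other 10 and the other 9 arrays they were -0.21 and -0.15 for NF-kB genes and -0.058 and -0.042 for type I interferon genes, and p53 targets reversed to 0.037 and 0.045. MAP kinase feedback genes had -0.14, and 0.13 with the mean of detected probes. The cause of these shifts was not tested, except that the threshold, the filter and the bound change which genes count by construction. The other 345 of 360 list medians moved by at most 0.26, the standard deviation over genes of the main difference, as did 255 of 355 values of called genes.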
